A study of Mus musculus with 4 samples.

Results

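The transcripts examined were those of 10 repressors of the Ink4a/Arf locus, namely the Polycomb genes Bmi1, Ring1, Rnf2, Cbx7, Cbx8, Ezh2, Suz12 and Eed and the T-box genes Tbx2 and Tbx3, chosen by their symbols from the 55487 genes counted. All 10 were among the 19384 genes that reached 10 counts in total over the libraries and were tested. RNA sequencing was performed on wild-type mouse embryonic fibroblasts (MEFs), which are primary cells that enter senescence after a limited number of divisions. The control MEFs were left untreated, the PEDF MEFs received 100 ng/mL of pigment epithelium-derived factor purified from mammalian cells for 24 h, and both were given as passage 2 in the sample labels. Each of experiments 1 and 2 contributed 1 control and 1 PEDF library from its own embryos, so that n = 2 for each group and the spread between libraries includes the difference between MEF preparations.

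The Ink4a/Arf locus, Cdkn2a, encodes the cell cycle inhibitor p16Ink4a and the p53 activator p19Arf from separate first exons, and its neighbor Cdkn2b encodes p15Ink4b. Polycomb repressive complex 2 (PRC2), built on Ezh2, Suz12 and Eed, methylates lysine 27 of histone H3. Polycomb repressive complex 1 (PRC1) combines a RING-type ubiquitin ligase (Ring1 or Rnf2) with a PCGF subunit such as Bmi1, and its canonical form holds a CBX protein that reads the methylated histone. Tbx2 and Tbx3 are DNA-binding repressors of the T-box family that act on the same locus. In cultured fibroblasts these repressors are known for holding back senescence.

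The libraries held 14722848 to 18144640 counts. TMM factors, which correct the library totals for composition, lay between 0.983 and 1.01, and 3 counts corresponded to 0.168 to 0.203 CPM (a gene's counts per 1000000 after this scaling). Every marker list for other cell types held detected genes. The summed TPM (the authors' length-corrected share of transcripts, which sums to 1000000 in each library) of 7 macrophage markers was 269 and 165 in control and 278 and 232 in PEDF-treated MEFs of experiments 1 and 2, with Lyz2 as the most abundant at 57.8 to 130.4 TPM. The sum of 10 fibroblast markers was 16540 and 19890 in control and 14660 and 16690 in PEDF-treated MEFs, led by Col1a1, a collagen I chain. In edgeR 0 of these 10 passed an adjusted p of 0.05, but when the experiment was fitted as a block 4 were called lower with PEDF (Col1a1, Col1a2, Pdgfrb and Fn1) and 1 higher (Dcn), and of the markers of other cell types Lyz2 and Acta1 were called higher, in a fit that called 3.75% of all genes. With a trend over gene length also removed, 3 of the 10 fibroblast markers were called lower and 1 higher, against 2.19% of all genes. Of the skeletal muscle markers 0 were called in that fit. Skeletal muscle markers (most abundant Acta1) summed to 287 to 391 TPM, neural markers (Nes) to 226 to 274, epithelial markers (Krt18) to 72.2 to 90.7 and endothelial markers (Kdr) to 6.83 to 7.24. The part of these cells in the values below was not tested, and a change in the number of cells of a type cannot be told apart from a change in RNA per cell.

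The promoter sequences below show the target locus and the members in whose windows an E2F-type motif was found, since E2F factors drive cell cycle genes. Windows of 300 bases, from 250 before to 50 after an annotated start, were taken from RefSeq (GRCm38.p6) and were found for 8 of the 10 repressors, all except Tbx2 and Tbx3. Capitals mark TTTCCCGC, TTTCGCGC, TTTGCCGC or TTTGGCGC, the E2F-type spellings searched, or TCACAC, the core of a T-box element, on either strand. These motifs do not overlap each other, and they were settled after a first look at the same windows in which a wider E2F spelling, a TATA box and an ETS motif were also scanned. The 2 Cdkn2a windows belong to its outer start, on the Arf side (chr4:89294570-89294869, minus strand), and its inner start, on the Ink4a side (chr4:89282143-89282442, minus strand). The Ezh2 window is chr6:47594981-47595280 on the minus strand and the Suz12 window is chr11:79992856-79993155 on the plus strand.
Cdkn2a, outer start: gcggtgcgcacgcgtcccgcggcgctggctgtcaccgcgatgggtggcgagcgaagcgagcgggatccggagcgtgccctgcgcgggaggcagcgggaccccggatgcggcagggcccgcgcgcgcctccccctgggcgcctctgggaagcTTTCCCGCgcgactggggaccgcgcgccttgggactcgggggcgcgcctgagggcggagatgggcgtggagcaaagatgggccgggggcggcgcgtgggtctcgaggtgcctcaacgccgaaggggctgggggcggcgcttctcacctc
Cdkn2a, inner start: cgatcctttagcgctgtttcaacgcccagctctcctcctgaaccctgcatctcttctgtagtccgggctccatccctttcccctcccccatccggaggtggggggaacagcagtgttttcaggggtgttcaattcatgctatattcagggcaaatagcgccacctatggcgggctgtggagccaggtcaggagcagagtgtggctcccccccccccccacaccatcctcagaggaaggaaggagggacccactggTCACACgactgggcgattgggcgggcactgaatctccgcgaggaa
Ezh2: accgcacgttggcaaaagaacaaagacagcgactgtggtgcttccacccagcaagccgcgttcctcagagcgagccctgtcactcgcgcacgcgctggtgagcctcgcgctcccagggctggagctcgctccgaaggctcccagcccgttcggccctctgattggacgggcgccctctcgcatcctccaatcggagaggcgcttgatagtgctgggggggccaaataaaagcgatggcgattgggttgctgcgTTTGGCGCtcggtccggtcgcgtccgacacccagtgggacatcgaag
Suz12: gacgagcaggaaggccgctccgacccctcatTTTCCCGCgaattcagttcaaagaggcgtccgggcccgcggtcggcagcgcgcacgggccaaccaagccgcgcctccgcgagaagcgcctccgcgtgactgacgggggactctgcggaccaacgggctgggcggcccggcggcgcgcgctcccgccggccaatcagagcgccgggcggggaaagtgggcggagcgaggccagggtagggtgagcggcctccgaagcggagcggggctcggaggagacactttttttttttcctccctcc

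An E2F-type spelling was present in 2 of the 8 windows of the repressors and in 2.26% of the 32851 windows in the table. It began 3 bases after the start in Ezh2 and 219 bases before it in Suz12, and in the outer Cdkn2a window it lay 99 bases before the start. TCACAC was found in no window of the 8 repressors, in the inner Cdkn2a window and in 14.5% of all windows. The CCAAT box, the letters CCAAT on either strand, was present in 5 of the 8 (Cbx7, Cbx8, Ezh2, Suz12 and Eed) and in 37.4% of all windows. All 8 were rich in CpG, with 17 to 41 per window against a median of 7 over all windows, of which 31.4% held 17 or more. Each E2F-type spelling contains a CpG, and its share among windows of like CpG content was not computed. These matches describe letters in the windows and are not evidence of binding.

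The repressors differed widely in transcript level. Each SD given for levels pools the control and PEDF libraries. Rnf2 was the most abundant at 47.3 ± 2.47 TPM (mean ± SD, n = 4 libraries), followed by Suz12 at 37.6 ± 2.93, Bmi1 at 28.6 ± 0.855, Eed at 27.1 ± 1.21 and Ezh2 at 25.6 ± 0.592 TPM. Tbx2 (23.0 ± 1.27 TPM), Ring1 (20.5 ± 1.17) and Tbx3 (14.4 ± 2.02) came next. Cbx8, at 7.51 ± 1.20 TPM, and Cbx7, at 1.23 ± 0.335 TPM, were the least abundant. Between neighbors in this order, the ranges over the 4 libraries overlapped for Bmi1 and Eed, for Eed and Ezh2 and for Tbx2 and Ring1, and were separate for all other neighbors. Among the 19384 genes tested, Rnf2 stood at the 83.5th percentile of mean TPM and Cbx7 at the 20.6th.

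**Figure D1:**
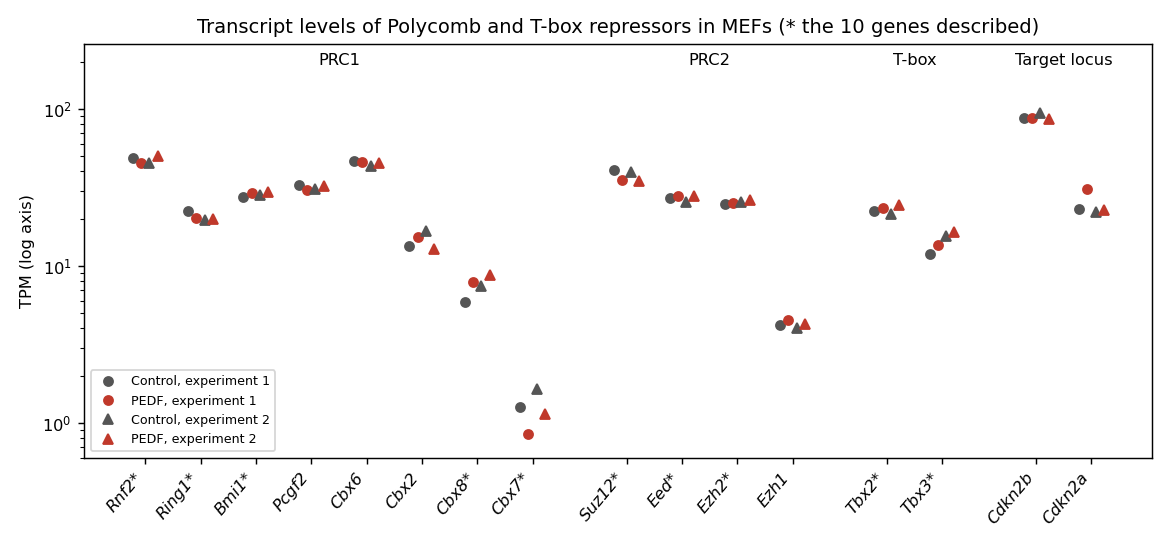
TPM on a log axis for the 10 repressors (asterisks), their close relatives and the target locus, with 1 point per library (grey, control; red, PEDF; circles, experiment 1; triangles, experiment 2). Rnf2 and Suz12 lead the repressors, while Cbx7 lies between 0.843 and 1.65 TPM in the 4 libraries.

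Paralogs were compared on the TPM scale, with SDs that pool the control and PEDF libraries. Ezh2 exceeded Ezh1, the other H3K27 methyltransferase, by 6.01 ± 0.347 times, and Rnf2 exceeded Ring1 by 2.31 ± 0.142 times (mean ± SD, n = 4 libraries). Bmi1 was close in level to its paralog Pcgf2, with a ratio of 0.904 ± 0.0494, and made up 24.9% of the summed TPM of the 6 PCGF genes. Among the CBX genes of canonical PRC1, Cbx6 exceeded Cbx8 by 6.18 ± 1.17 times, and the ratio of Cbx8 to Cbx2 was 0.524 ± 0.117. Cbx7 was below Cbx8 in every library, as given with the pairs of partners.

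Whether PEDF altered these transcripts was asked with edgeR's quasi-likelihood test on the counts, adjusted by Benjamini-Hochberg over all genes tested. None of the 10 repressors passed an adjusted p of 0.05, where 0.00516% of all genes (1 of 19384) did. An unadjusted p under 0.05 was reached by 0 of the 10 and by 6.88% of all genes. When the experiment was fitted as a block, so that MEFs of 1 preparation were set against each other, 0 of the 10 passed the adjusted threshold, against 3.75% of all genes. At an unadjusted p under 0.05 the block gave 2 of the 10 (Cbx8 and Suz12), against 14.6% of all genes. With a trend over gene length also removed it gave 3 (Cbx8, Suz12 and Tbx3), against 2267 of 19384 genes. Without the block, the median log2 fold change of the 10 was 0.07 and their median absolute change 0.13, compared with 0.0012 and 0.14 over all genes tested.

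The direction of the differences was described by comparing libraries. Both PEDF libraries lay above both control libraries in CPM for 5 of the 10 repressors (Bmi1, Cbx8, Ezh2, Eed and Tbx2), a pattern found in 18.9% of all genes. Both lay below for 2 (Cbx7 and Suz12), as in 18.4% of all genes. Within both experiments PEDF was the higher library for 6 of the 10, the 5 above and Tbx3, against 30.1% of all genes, and the lower for 2 against 28.8%. Ring1 and Rnf2 had differences of opposite sign in experiments 1 and 2. No test was made of these counts over the 10 genes, which were chosen as a list.

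**Figure D2:**
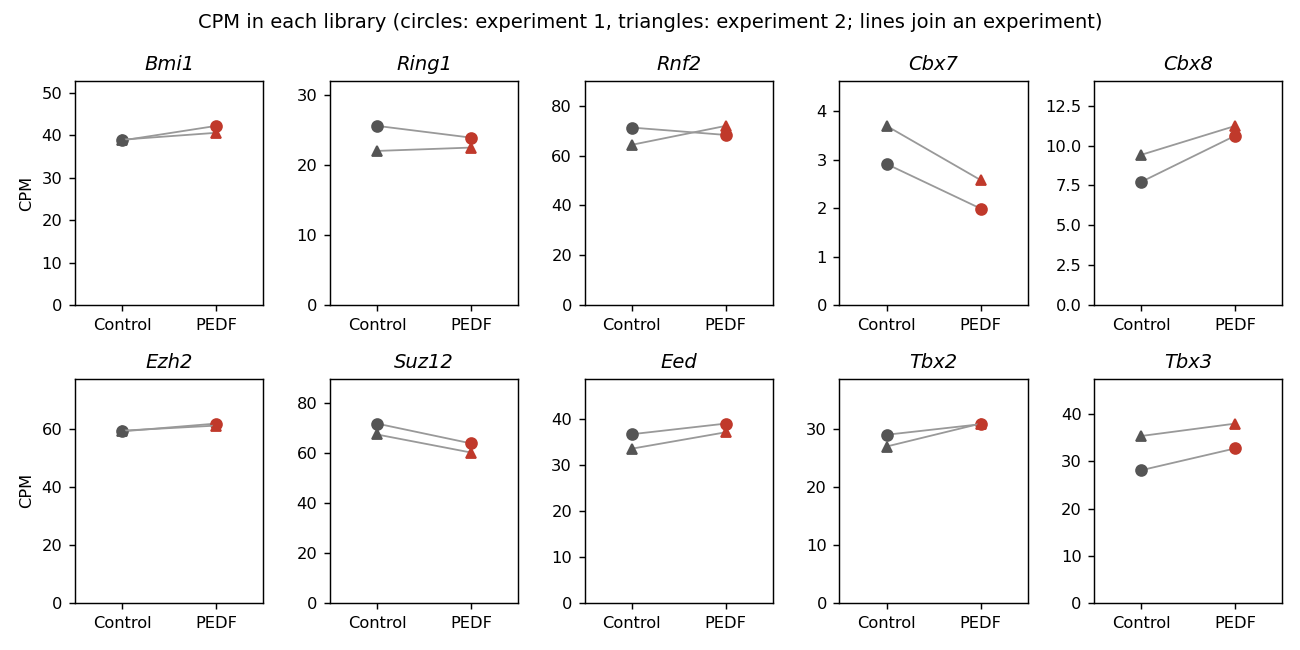
CPM of each repressor in each library, with lines joining the control and PEDF libraries of an experiment (circles, experiment 1; triangles, experiment 2), on axes that start at 0. The PEDF library is the higher in both experiments for Cbx8 and the lower for Cbx7 and Suz12, while the lines of Rnf2 cross.

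The precision of these comparisons differed with the counts, which summed to 186 for Cbx7 and to 4540 for Rnf2 over the 4 libraries. For 8 of the 10 repressors the 95% interval of the fold change lay within 1.5-fold in either direction, and for 9 it lay within 1 log2 unit. Changes beyond these bounds were thus outside the intervals of those genes, and for each gene the bounds of its own interval apply.

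**Figure D3:**
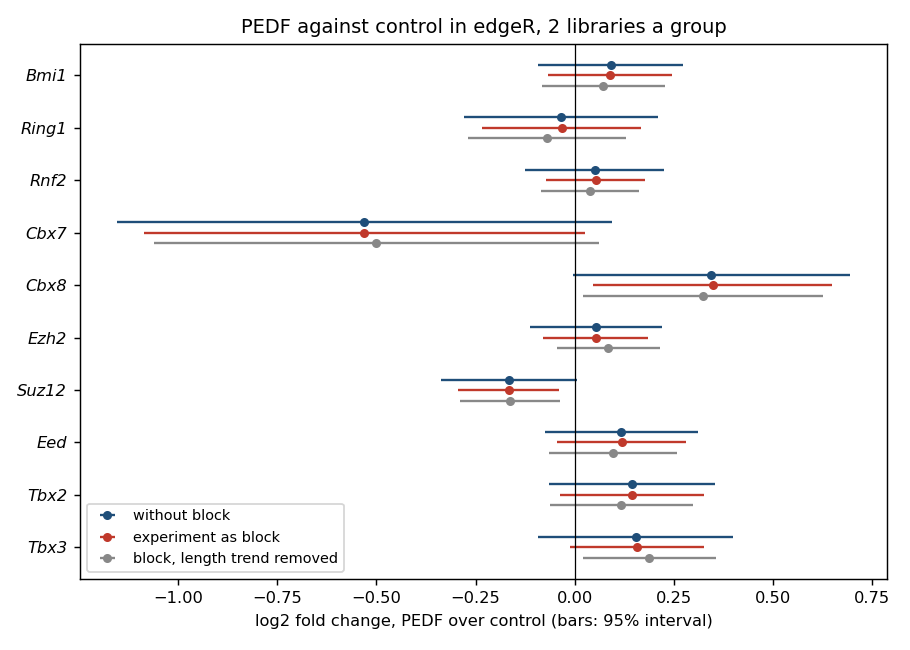
Log2 fold change of each repressor, PEDF over control, with 95% intervals from edgeR without a block (blue), with the experiment as block (red) and with the block and the gene-length trend removed (grey). All 10 blue intervals include 0, and Cbx7 has the widest, from -1.15 to 0.09. The red intervals of Cbx8 and Suz12 and the grey intervals of Cbx8, Suz12 and Tbx3 exclude 0, without adjustment over genes.

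Of the PRC2 subunits among the 10 repressors, Suz12, a core component required for the activity of the complex, gave the smallest p (chr11:79993106-80034123, plus strand). Its level was 71.7 CPM in control and 63.8 CPM in PEDF-treated MEFs of experiment 1, and 67.3 and 60.1 CPM in those of experiment 2. In the values that follow, experiment 1 is given before experiment 2 for each condition. The PEDF values were lower in both experiments, and the groups did not overlap. The log2 fold change was -0.17 (SE 0.0808, 95% interval -0.34 to 0.01, edgeR adjusted p = 0.728), and with the block the adjusted p was 0.142. Ezh2, the catalytic subunit (chr6:47530139-47595341, minus strand), was the steadiest of the 10 at 59.0 and 59.3 CPM in control and 61.7 and 61.0 CPM in PEDF-treated MEFs. Its highest library exceeded its lowest by 1.05 times, and the log2 fold change of 0.05 had an interval from -0.11 to 0.22. Eed, which binds the methylated histone (chr7:89954654-89980983, minus strand), was at 36.7 and 33.6 CPM in control and 39.1 and 37.2 CPM in PEDF-treated MEFs, and its estimate was 0.12 on the log2 scale (SE 0.091, edgeR adjusted p = 0.802).

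The catalytic and structural PRC1 subunits lay close to the control level. Bmi1 (chr2:18677018-18686629, plus strand) was at 38.8 and 39.0 CPM in control and 42.3 and 40.6 CPM in PEDF-treated MEFs, and its log2 fold change was 0.09 with an interval from -0.09 to 0.27. Its difference corresponded to 6.45%, which was larger than the spread between the control libraries but did not pass the test (edgeR adjusted p = 0.859). Ring1 (chr17:34020792-34024680, minus strand) was at 25.6 and 22.0 CPM in control and 23.9 and 22.5 CPM in PEDF-treated MEFs. The control libraries of Ring1 enclosed both PEDF libraries. Rnf2 (chr1:151458004-151500955, minus strand) was at 71.2 and 64.3 CPM in control and 68.3 and 71.9 CPM in PEDF-treated MEFs, and its groups overlapped too. The log2 fold changes were -0.03 for Ring1 (adjusted p = 0.965) and 0.05 for Rnf2 (adjusted p = 0.924) by edgeR.

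The CBX members, which link PRC1 to the PRC2 mark, had the largest fold changes of the 10 and the lowest counts. Cbx8 (chr11:119036305-119040969, minus strand) was at 7.73 and 9.42 CPM in control and 10.6 and 11.2 CPM in PEDF-treated MEFs, from 114 and 168 counts against 165 and 200. Both PEDF libraries were above both controls, and the estimate was 0.34 on the log2 scale (SE 0.165, interval -0.01 to 0.69, edgeR adjusted p = 0.719). Cbx7 (chr15:79915807-79971119, minus strand) was at 2.91 and 3.70 CPM in control and 1.99 and 2.58 CPM in PEDF-treated MEFs, from 43 and 66 counts against 31 and 46. Both PEDF libraries were below both controls, and the estimate was -0.53 on the log2 scale (SE 0.294, edgeR adjusted p = 0.752). Neither difference passed the test, with the block included (adjusted p of 0.229 for Cbx8 and 0.383 for Cbx7).

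Of the T-box repressors, Tbx2 (chr11:85832551-85841948, plus strand) was at 29.0 and 27.0 CPM in control and 30.8 and 30.9 CPM in PEDF-treated MEFs. Its groups did not overlap, and the estimate was 0.14 on the log2 scale (SE 0.0987, edgeR adjusted p = 0.792). Tbx3 (chr5:119670669-119684724, plus strand) was at 28.1 and 35.4 CPM in control and 32.8 and 38.0 CPM in PEDF-treated MEFs. Its groups overlapped because experiment 2 was higher than experiment 1 in both conditions, and the log2 fold change was 0.15 (SE 0.115, edgeR adjusted p = 0.802). It was 0.0015 without control replicate 1 and 0.33 without control replicate 2.

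Within single experiments, the PEDF and control libraries were also compared with exact 95% intervals for counting error, which describe those libraries and not the condition. In experiment 1 the interval excluded 0 for 3 of the 10 repressors and for 20.1% of all genes tested, with log2 ratios of 0.46 (0.11 to 0.82) for Cbx8, 0.22 (0.03 to 0.41) for Tbx3 and -0.17 (-0.30 to -0.04) for Suz12. In experiment 2 it excluded 0 for 3 of the 10 and for 25.5% of all genes, with 0.16 (0.05 to 0.28) for Rnf2, 0.20 (0.02 to 0.38) for Tbx2 and -0.16 (-0.28 to -0.04) for Suz12. Suz12 was thus outside counting error in both, although its interval in edgeR without the block included 0. The share of all genes outside counting error in both experiments was not computed. The log2 ratio was -0.55 and -0.52 for Cbx7 in experiments 1 and 2, with intervals that included 0.

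**Figure D4:**
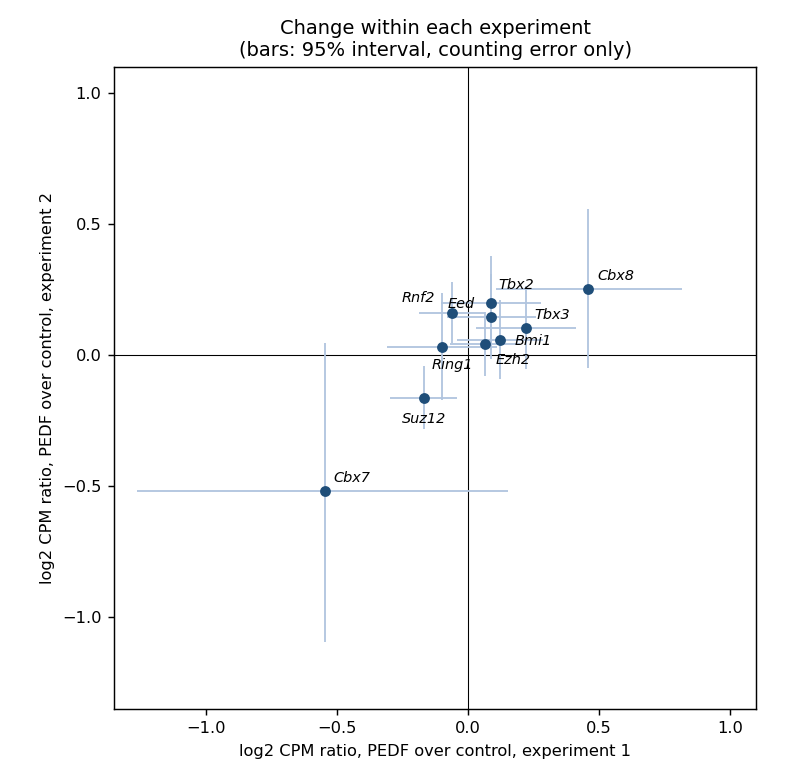
Log2 CPM ratio of PEDF to control in experiment 1 (horizontal) and experiment 2 (vertical) for each repressor, with bars for the 95% counting interval. Of the 10 points, 8 lie in the quadrants where both experiments have the same direction, and Ring1 and Rnf2 lie outside them. Over all genes tested, PEDF was the higher library within both experiments for 30.1% and the lower for 28.8%.

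Ratios between partners do not depend on library scaling and were compared for 7 pairs. The interval of the PEDF to control ratio excluded 1 in both experiments for 2 pairs, and for the other 5 pairs it included 1 in each experiment. The ratio of Cbx8 to Cbx7 in TPM was 4.68 and 4.49 in control and 9.40 and 7.67 in PEDF-treated MEFs. It was higher with PEDF by 2.00 times in experiment 1 (1.16 to 3.50) and 1.71 times in experiment 2 (1.09 to 2.69). The ratio of Suz12 to Ezh2 was 1.64 and 1.53 in control and 1.40 and 1.33 in PEDF-treated MEFs, with PEDF to control ratios of 0.851 (0.748 to 0.967) and 0.867 (0.769 to 0.978). These intervals cover counting error only, the partners were set side by side with their values known, and no p was derived. The share of all gene pairs whose interval excluded 1 in both experiments was not computed. For single genes, the counting interval excluded equal levels in 20.1% of all genes in experiment 1 and in 25.5% in experiment 2. Cbx8 had the largest rise of the repressors (log2 fold change 0.34) and Cbx7 the largest fall (-0.53), and neither passed the edgeR test.

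Between the experiments, Tbx3 had the smallest p of the 10. Experiment 2 was higher than experiment 1 by 0.27 on the log2 scale (SE 0.105, edgeR adjusted p = 0.599), and 0 of the 10 repressors passed, against 0.0567% of all genes. With treatment as a block, Tbx3 was the only repressor of the 10 that passed (adjusted p = 0.0431), against 4.49% of all genes.

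The target locus was read from the same libraries. Cdkn2a (chr4:89274471-89294653, minus strand) was at 9.62 and 8.91 CPM in control and 13.2 and 9.32 CPM in PEDF-treated MEFs. The PEDF library of experiment 1 stood above the other libraries, and the groups overlapped because that of experiment 2 lay between the controls. The log2 fold change was 0.28 (SE 0.18, edgeR adjusted p = 0.778), and it was 0.0090 without the PEDF library of experiment 1 and 0.51 without that of experiment 2. The counts cover the whole gene, so the Ink4a and Arf transcripts, whose starts are shown above, cannot be told apart. Cdkn2b was at 43.0 and 45.0 CPM in control and 44.7 and 41.8 CPM in PEDF-treated MEFs, and its log2 difference was -0.03 (edgeR adjusted p = 0.959).

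The rest of the pathway was examined in the same fits. Of 66 other Polycomb, demethylase, deubiquitinase, T-box and Ink4a/Arf regulator genes in the table, 61 were tested and 0 passed in edgeR without the block, where 5 had an unadjusted p under 0.05, against 6.88% of all genes. With the block 2 of the 61 passed, 1 in each direction, against 3.75% of all genes. DESeq2 with the block called 0 of them, but it gave an adjusted p to 4 of these genes only, or 5 at a filtering level of 0.05, where Usp7 had 0.377 and Id1 had none. Id1, an inhibitor of the Ets activation of Ink4a, rose from 73.4 and 62.5 CPM in control to 85.2 and 76.6 CPM in PEDF-treated MEFs (log2 fold change 0.26, blocked adjusted p = 0.00275, edgeR). Usp7, a deubiquitinase found with PRC1, fell from 133 and 140 CPM to 117 and 126 CPM (log2 fold change -0.17, blocked adjusted p = 0.0394, edgeR). Without control replicate 2 the unblocked estimate of Id1 was 0.14 in place of 0.25. With the block and the gene-length trend removed, 0 of the 10 repressors passed, against 2.19% of all genes. Id1 (log2 fold change 0.16, adjusted p = 0.176) and Usp7 (-0.12, adjusted p = 0.265) did not pass in that edgeR fit, while Rbbp4, a histone-binding PRC2 subunit named here after its values were seen, passed in it and not in the other edgeR fits named here (log2 fold change 0.16, adjusted p = 0.0226). The trend amounted to -0.0404 in experiment 1 and -0.0565 in experiment 2 on the log2 scale per doubling of gene length.

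By list, the 23 other PRC1 subunits had a median log2 fold change of -0.03, the 11 other PRC2 subunits 0.06, the 7 enzymes that remove the Polycomb marks -0.07, the 10 other T-box genes tested 0.01 and the 10 other regulators of Ink4a/Arf 0.01. Tbx15, at 53.7 to 57.5 TPM, was the most abundant T-box gene and exceeded Tbx2 and Tbx3 in every library. Tbx10, Tbx19 and Tbx22 had 0 counts in all libraries, which allows up to 0.203 CPM in the shallowest. Of 15 proliferation markers, with Rrm2 highest per length at 148 to 171 TPM, 0 passed without the block. With it 2 of the 15 passed, Tyms (log2 fold change 0.24) and Mki67 (-0.16), against 3.75% of all genes, and only Tyms of the 15 passed with the length trend removed.

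**Figure D5:**
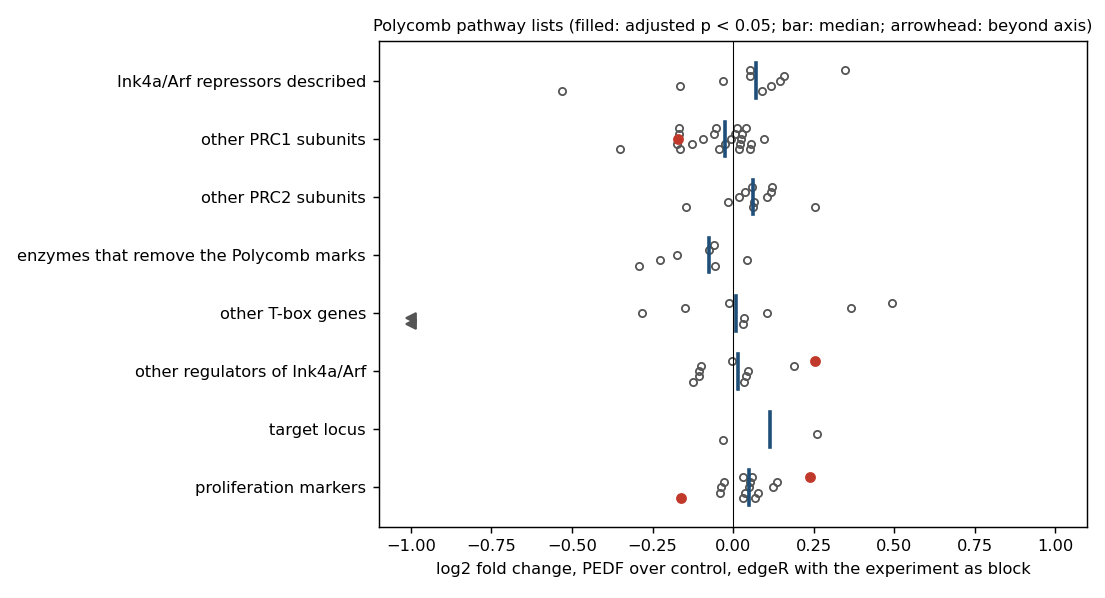
Log2 fold change of each gene, PEDF over control, in edgeR with the experiment as block, for the 10 repressors and 7 related lists (open points, not called; filled red points, adjusted p under 0.05; bars, medians; arrowheads, T-box genes of few counts beyond the axis). None of the 10 repressors is filled, and Id1 and Usp7 are the filled genes of the Polycomb, T-box and regulator lists.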

How the data were processed

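RNA sequencing of 4 MEF libraries was analyzed. The passage of the MEFs differs between the sample labels, used here, and the text of the paper. Directional libraries were made by the authors from polyadenylated RNA. Reads were trimmed with Trimmomatic 0.38 and aligned with HISAT2 2.1.0 (mm10 in the submitters' processing notes), and featureCounts 1.6.3 gave the number of uniquely mapped reads for each gene. The authors deposited these counts without normalization and TPM values beside them. The strand setting and the annotation release are not given in the sources used here. The gene lengths implied by counts and TPM matched exon lengths of GENCODE M21 within 1% for 98.4% of genes, and coordinates are those of GRCm38. Rnf2, Cbx7, Ezh2, Suz12, Eed and Tbx3 share 100 to 261 exonic bases with a gene on the opposite strand, so their counts are uncertain by the reads placed there.

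Counts were tested in R 4.3.3 with edgeR 4.0.16 (TMM factors, robust quasi-likelihood test, at least 10 counts in total, Benjamini-Hochberg adjustment), without a covariate. Each SE was derived from the F statistic of the fold change. Levels between genes used the deposited TPM. The labels give each experiment its own embryos, so its libraries share a preparation, and the deviations of same-numbered libraries correlated across 10722 genes (r = 0.423, genes not being replicates). With n = 2, an exact permutation test over libraries could not reach 0.05 and none is given. Alternatives were the block, DESeq2 1.42.0, RLE factors, library totals, no filter, filterByExpr, limma 3.58.1 on log2(TPM + 1), a length-trend offset (natural spline of 5 degrees of freedom) and each library left out. DESeq2 was first run with its default independent-filtering level of 0.1. Runs at 0.05, and on the genes with at least 10 counts, were added after that result had been seen. Methods were tested on simulated data.

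The repressors and the gene lists were chosen with earlier results of these data known. The text names all 10 repressors, Ezh1, Cbx2, Cbx6, Pcgf2, Cdkn2a, Cdkn2b, pathway genes with an adjusted p under 0.05 with or without the block, and the most abundant gene of each marker list. Rbbp4, Tyms, Mki67, Col1a2, Pdgfrb, Fn1, Dcn, Tbx15, Tbx10, Tbx19 and Tbx22 were named after their values were seen, and 1 gene of the rule is not reported here. Intervals within an experiment are exact (Clopper-Pearson, 95%) and cover counting error only.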

Additional observations from a re-analysis of the deposited data

Results flagged for a closer look

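Ring1 and Rnf2, the alternative ubiquitin ligases of PRC1, had differences of opposite sign in experiments 1 and 2. The other 8 repressors had the same direction in both experiments. Over all genes tested, PEDF was the higher library within both experiments for 30.1% and the lower for 28.8%. The remaining genes did not share a direction either, so this pattern was not particular to Ring1 and Rnf2. The log2 ratio of PEDF to control was -0.0979 in experiment 1 and 0.0308 in experiment 2 for Ring1, and -0.0611 and 0.1611 for Rnf2. With 1 library of each condition per experiment the difference between experiments was not tested. For both genes the counting interval of experiment 1 included 0, as did that of Ring1 in experiment 2.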

How the results depend on the processing

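Of 17 alternatives for PEDF against control, 13 gave an adjusted p for all 10 repressors and 2, both in DESeq2, for 8 of them (not Cbx7 and Cbx8). None passed 0.05 there, and the smallest adjusted p was 0.142 (Suz12, edgeR with the replicate block). The other 2, DESeq2 with the replicate block, adjusted over 1310 and 1817 genes after its filtering and gave none of the 10 an adjusted p, so they tested no repressor. Of 170 fold changes, 167 kept their direction. An unadjusted p under 0.05 was reached by 1 of the 10 without a filter in edgeR, against 1722 of 26183 genes. The count was also 1 with library totals in edgeR (1362 of 19384 genes) and with limma (959 of 19384). At an adjusted p under 0.05, the count over all genes depended on the setting. It was 1 in the reported test, 726 with the replicate block, 425 with the block and the length trend removed, 106 without a filter, 0 with filterByExpr and 0 with limma, and 2 to 205 with 1 library left out, the highest without control replicate 1. DESeq2 called 5 genes in its default run and 118 with the replicate block. Its added runs, chosen after seeing the data, called 3 at a filtering level of 0.05, 4 on the genes with at least 10 counts, 3 with both and 119 with the replicate block at 0.05. Of the other pathway genes, 2 passed with the replicate block and 1 with the length trend removed, against 0. For experiment 2 against experiment 1 the count was 11, and it was 870 with treatment as a block, 139 without a filter and 21 to 480 with 1 library left out, while 1 repressor, Tbx3, passed with treatment as a block. The cause of these differences was not tested.

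With 1 library left out, the log2 fold change ran from -0.144 to 0.074 for Ring1, -0.024 to 0.124 for Rnf2, -0.257 to 0.0689 for Cbx2, -0.0178 to 0.127 for Cbx6, -0.0642 to 0.0699 for Pcgf2 and -0.0776 to 0.0206 for Cdkn2b, so that these 6 changed sign. Pcgf2 did so too with limma (-0.0194) and with the replicate block and the length trend removed (-0.0237). The values ran from -0.73 to -0.34 for Cbx7, 0.21 to 0.50 for Cbx8, -0.21 to -0.12 for Suz12, 0.06 to 0.12 for Bmi1, 0.04 to 0.06 for Ezh2, 0.05 to 0.18 for Eed, 0.09 to 0.19 for Tbx2, 0.0015 to 0.33 for Tbx3, 0.14 to 0.37 for Id1, -0.22 to -0.12 for Usp7, 0.03 to 0.18 for Rbbp4 and 0.0090 to 0.51 for Cdkn2a, whose lowest value was without PEDF replicate 1. Cbx7, with 31 to 66 counts per library, was the least precise.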
